A study of Homo sapiens with 12 samples.

Results

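Collagens and the enzymes that modify them were read in JIMT1 cells, a HER2-positive breast cancer cell line with an epithelial-like form, grown as monolayers, as 2 kinds of 3D culture and as tumors in mice. The gene set has 42 members: 7 fibrillar collagens, 8 basement membrane and network collagens, 3 beaded filament collagens, 4 FACIT collagens (fibril-associated collagens with interrupted triple helices), 2 transmembrane collagens, 5 lysyl oxidases, 5 hydroxylases and chaperones of the endoplasmic reticulum, 2 genes of procollagen C-terminal processing, and 6 matrix partners. The rule took every probe annotated to a member, and where several passed the detection filter the brightest stands for its gene. A probe was named for 41 of the 42 members, by 62 probes, and none was named here for COL17A1.

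The groups were xenografts, taken from mammary fat pads of BALB/C-nude mice 43 days after cells were injected together with Matrigel, MG7d and MG4d (Matrigel, a protein gel derived from basement membrane, for 7 and 4 days), PH7d and PH4d (polyHEMA, a non-adhesive coating, for 7 and 4 days), and 2D7d (7 days as a monolayer). Each group had 2 arrays, labelled as biological replicates. Matrigel cultures received less serum than the others, and the gel was dissolved with Dispase, a protease, before RNA was isolated, so neither can be told apart from growth in the gel. The tumors also hold host cells of the mouse, whose share of RNA was not measured. All groups come from the same cell line, which lacks estrogen and progesterone receptors by its label and resists trastuzumab, and the study asked which culture lies closest to the xenografts.

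As background, collagen chains are folded into triple helices in the endoplasmic reticulum, where prolines and lysines are hydroxylated and the chaperone HSP47 (SERPINH1) holds the helix. Outside the cell, propeptides are trimmed by BMP1 with the help of PCOLCE, fibrils or sheets form, and lysyl oxidases crosslink them. Fibrillar collagens are mostly products of fibroblasts, whereas epithelial cells contribute to the basement membrane, whose sheet is built of type IV collagen. In breast tumors, dense and crosslinked collagen is a known trait of the stroma.

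A probe entered the tests where it was detected (detection p-value under 0.01 against the negative controls of its array) on both arrays of at least 1 group. This held for 27 of the 42 members and for 10970 genes in all. Of the 27, 17 were detected on both arrays of all 6 groups, and 3 (LOX, LUM and DCN) passed through the xenografts only, so that these had to differ there. Of the 14 members that did not pass, 12 were detected on 0 arrays: COL5A2, COL11A1, COL27A1, COL4A3, COL8A1, COL6A3, LOXL2, LOXL3, LOXL4, BGN, NID1 and HSPG2. COL1A2 and COL3A1 were detected on 1 array each. Arrays detected between 13952 and 18430 of their 47323 probes, and 20 to 26 of the 27 members. The arrays stood apart within polyHEMA: replicates differed by at least 2-fold in 38.2% of genes in PH4d and 30.5% in PH7d, against 0.137% to 1.97% in the other groups. Among the 27 members, 6 did so in PH4d and 5 in PH7d, and 0 in the other groups.

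Type IV collagen genes lie in pairs on opposite strands that share 1 upstream region, and the windows of both measured pairs are shown because the members of a pair are compared below. The windows come from RefSeq on GRCh38.p14, with 250 bases before and 50 after a start site, and those of 31 of the 42 members were searched. The windows of COL4A1 (chr13:110307108-110307407, minus strand) and COL4A2 (chr13:110307034-110307333, plus strand) share 226 bases, and their start sites lie 127 bases apart. Those of COL4A5 (chrX:108439588-108439887, plus strand) and COL4A6 (chrX:108439409-108439708, minus strand) share 121 bases, with start sites 380 bases apart. A second COL4A6 window (chrX:108438373-108438672, minus strand) is not shown, as it lies apart from that of COL4A5. COL5A1 (chr9:134641553-134641852, plus strand) and COL13A1 (chr10:69801656-69801955, plus strand) are shown as the members with the largest rise and the largest fall in the xenografts. Each window is written 5′ to 3′ on its gene's strand, with capitals on every match, on either strand, of 3 promoter motifs: the CCAAT box, the GC box GGGCGG and the TATA box as TATAAA.
COL4A1: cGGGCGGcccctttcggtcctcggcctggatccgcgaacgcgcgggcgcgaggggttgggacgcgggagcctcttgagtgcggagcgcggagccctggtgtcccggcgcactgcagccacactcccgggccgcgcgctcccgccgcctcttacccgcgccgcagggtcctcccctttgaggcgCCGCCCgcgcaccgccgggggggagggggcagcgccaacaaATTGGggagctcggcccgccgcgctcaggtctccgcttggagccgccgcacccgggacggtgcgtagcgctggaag
COL4A2: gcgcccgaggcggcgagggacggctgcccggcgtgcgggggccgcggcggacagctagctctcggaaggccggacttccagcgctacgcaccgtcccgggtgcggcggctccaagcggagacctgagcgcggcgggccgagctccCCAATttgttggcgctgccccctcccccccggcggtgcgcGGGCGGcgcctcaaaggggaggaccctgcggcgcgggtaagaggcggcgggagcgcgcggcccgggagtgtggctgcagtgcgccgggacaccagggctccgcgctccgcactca
COL4A5: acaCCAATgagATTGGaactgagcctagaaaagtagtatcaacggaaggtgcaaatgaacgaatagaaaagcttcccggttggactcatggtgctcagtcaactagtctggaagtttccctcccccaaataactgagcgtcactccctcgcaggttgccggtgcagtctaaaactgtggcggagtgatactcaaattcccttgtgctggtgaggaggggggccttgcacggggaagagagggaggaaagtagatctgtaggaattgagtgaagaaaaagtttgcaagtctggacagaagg
COL4A6: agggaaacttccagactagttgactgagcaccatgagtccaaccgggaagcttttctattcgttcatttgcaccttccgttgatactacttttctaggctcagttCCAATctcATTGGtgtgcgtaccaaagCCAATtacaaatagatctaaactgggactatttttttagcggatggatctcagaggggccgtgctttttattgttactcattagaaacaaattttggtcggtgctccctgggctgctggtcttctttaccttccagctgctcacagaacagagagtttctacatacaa
COL5A1: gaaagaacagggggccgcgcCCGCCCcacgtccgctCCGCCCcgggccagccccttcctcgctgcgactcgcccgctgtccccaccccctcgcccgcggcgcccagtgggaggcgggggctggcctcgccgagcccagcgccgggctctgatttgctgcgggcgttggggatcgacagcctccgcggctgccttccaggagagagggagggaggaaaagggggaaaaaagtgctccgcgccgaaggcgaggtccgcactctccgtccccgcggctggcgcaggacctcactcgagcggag
COL13A1: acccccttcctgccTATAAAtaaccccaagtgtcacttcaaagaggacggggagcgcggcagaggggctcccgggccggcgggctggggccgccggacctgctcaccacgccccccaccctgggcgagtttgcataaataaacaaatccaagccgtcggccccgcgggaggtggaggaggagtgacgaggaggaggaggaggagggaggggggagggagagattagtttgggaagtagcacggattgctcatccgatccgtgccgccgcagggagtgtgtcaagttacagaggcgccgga

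The COL4A1 and COL4A2 windows hold 1 and the same CCAAT match, read from opposite strands, and 2 and 1 matches of GGGCGG. The windows shown for COL4A5 and COL4A6 hold 2 and 3 CCAAT matches and 0 of GGGCGG, and the second COL4A6 window holds 0 of CCAAT and 1 of GGGCGG. COL5A1 has 2 GGGCGG matches. COL13A1 has 1 TATAAA match and none of the others, and this match lies near the upstream end of its window, far from the start site. No 2 matches overlap in these windows. Over all 35116 windows of this length, 34.6% hold CCAAT, 45% hold GGGCGG and 11.5% hold TATAAA, so each of these matches is common. They describe the sequence and were not tested as binding sites.

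Signals are given as log2 of the background-corrected, quantile-normalized intensity, and differences are log2 differences with their standard error (SE) from a limma fit over the 12 arrays. For each gene the fit uses the same spread estimate in all groups. Where polyHEMA replicates lie far apart, the SE thus understates the spread on polyHEMA and overstates it elsewhere. A gene was called changed at a Benjamini-Hochberg adjusted p under 0.05 over the 10970 genes and a difference of at least 2-fold. Against 2D7d, 13 of the 27 members changed in the xenografts, 9 higher and 4 lower (31.1% of all genes called, 16.4% higher and 14.7% lower). The 9 include LOX, LUM and DCN, which passed the detection filter through the xenografts only, so that they had to be higher there. The 4 include COL13A1, which passed through 2D7d and Matrigel only, so that it had to be lower there and on polyHEMA. In Matrigel, 4 members changed in MG7d, all lower (21.1% of all genes called, 10.8% higher and 10.3% lower), and 9 in MG4d, all lower (21.8% of all genes called, 10.2% higher and 11.5% lower). On polyHEMA, 6 changed in PH7d, all lower (6.24% of all genes called, 3.87% higher and 2.36% lower), and 3 in PH4d, all lower (4.42% of all genes called, 2.58% higher and 1.84% lower). Some alternatives added calls of higher members, among them fits without replicate 2 of polyHEMA (in PH7d and PH4d) and no fold limit (1 in MG7d). The median log2 difference of the 27 members from 2D7d was -0.36 in the xenografts, -0.64 in MG7d, -0.78 in MG4d, -0.33 in PH7d and -0.22 in PH4d, beside medians over all genes of 0.01, -0.01, -0.07, 0.05 and 0.03. The 5 comparisons share the 2D7d arrays, so they are not independent of one another.

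Set against the 3D cultures, the xenografts had 9 members higher and 1 lower than MG7d (5.76% of all genes called, 3.32% higher and 2.44% lower) and 10 higher and 1 lower than MG4d (10.6% of all genes called, 7.06% higher and 3.58% lower). They had 6 higher than PH7d (7.35% of all genes called, 3.35% higher and 3.99% lower) and 7 higher than PH4d (5.16% of all genes called, 2.56% higher and 2.6% lower). The median log2 difference of the 27 members was 0.64, 0.93, 0.76 and 0.57 in the xenografts against MG7d, MG4d, PH7d and PH4d, beside -0.02, 0.00, -0.01 and 0.01 over all genes. LOX and DCN, which passed the detection filter through the xenografts, are among the members higher in all 4. LUM, which passed in the same way, is among those higher than in MG7d, MG4d and PH4d.

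**Figure D1:**
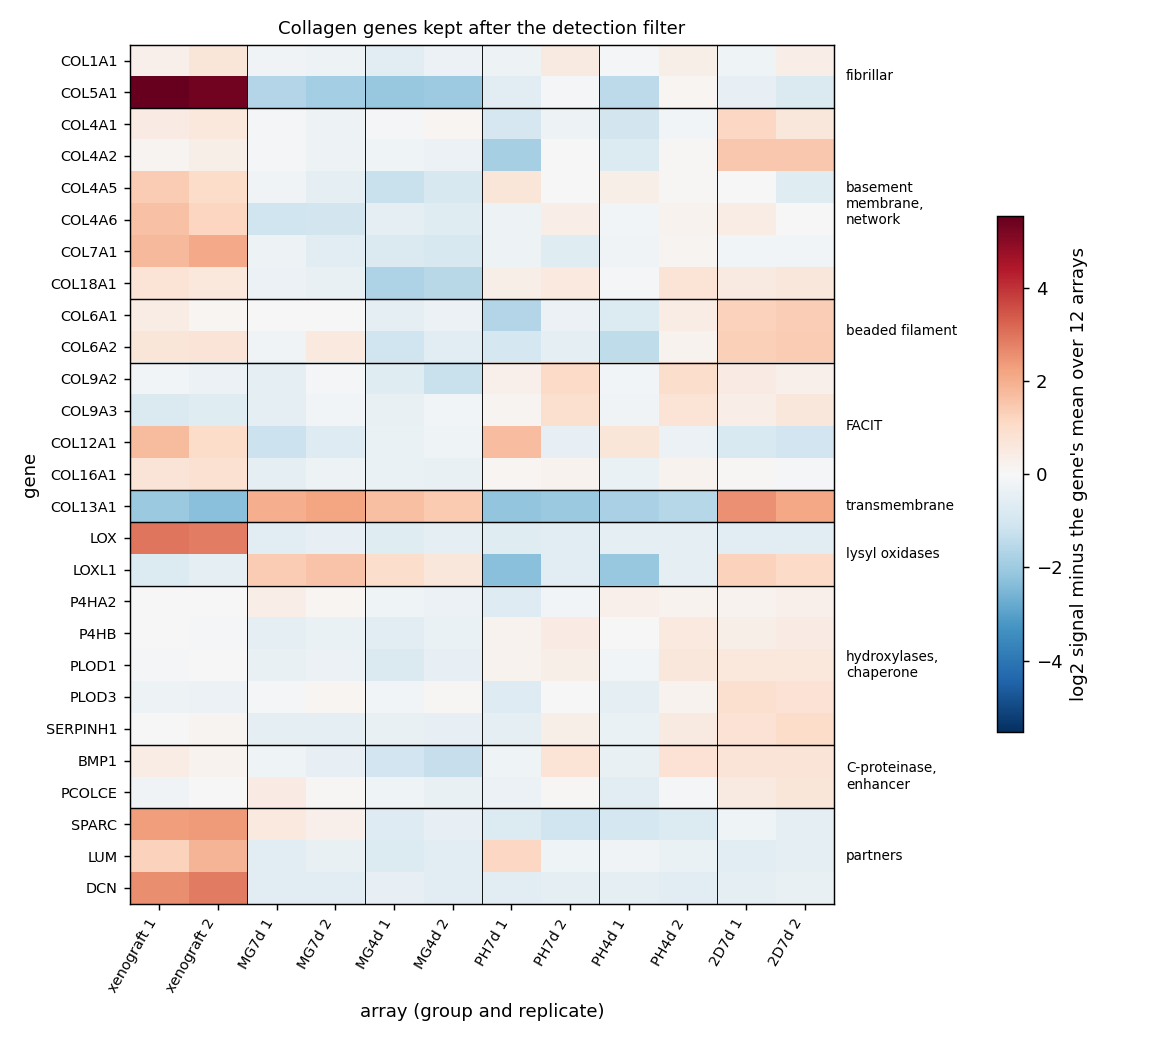
Log2 signal of the 27 members that passed the detection filter on each of the 12 arrays, as the difference from each gene's own mean, with genes grouped by role and groups separated by lines. COL5A1, LOX, SPARC and DCN are highest in both xenografts, COL13A1 is low in xenografts and polyHEMA, and COL6A1, COL6A2, COL4A2 and SERPINH1 are highest in both 2D7d arrays.

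Among the fibrillar collagens, COL5A1 stood far above every culture in the xenografts. It encodes the main chain of type V collagen, which regulates the diameter of type I collagen fibrils. COL5A1 read 12.75 and 12.57 in the xenografts, 5.62 and 5.35 in MG7d, 5.14 and 5.23 in MG4d, 6.60 and 7.15 in PH7d, 5.79 and 7.33 in PH4d, and 6.76 and 6.41 in 2D7d. Both xenograft arrays thus lay above all 10 culture arrays, and in Matrigel the gene was not detected on any array. The difference from 2D7d was 6.07 ± 0.44 (67.4-fold, adjusted p = 9.9e-05), and the xenografts lay at least 125-fold above MG7d, at least 116-fold above MG4d, 55.1-fold above PH7d and 68.4-fold above PH4d (adjusted p at most 1.03e-04). Here and below, "at least" marks a bound, set by the lowest detected signal, where neither array of the lower group detected the gene. MG4d was also lower than 2D7d, by at least 1.73-fold (adjusted p = 0.0471), a call that was lost under 5 of 12 alternative settings.

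Of the other fibrillar chains, 0 were called changed. COL1A1, a chain of type I collagen and a leading product of fibroblasts, was detected on all 12 arrays at low intensity (141 to 240) and read 6.87 and 7.26 in the xenografts, 6.41 and 6.30 in MG7d, 5.98 and 6.28 in MG4d, 6.32 and 7.08 in PH7d, 6.48 and 6.91 in PH4d, and 6.36 and 6.96 in 2D7d. Its xenograft arrays overlapped those of PH7d, PH4d and 2D7d, and it passed the test in 0 of the 11 comparisons. COL3A1, a second fibroblast collagen, had intensities of 127 and 131 in the xenografts and 80.6 to 99.7 in the cultures, and was detected on 1 array. COL5A2, the chain that pairs with COL5A1 in type V collagen, was detected on 0 arrays.

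**Figure D2:**
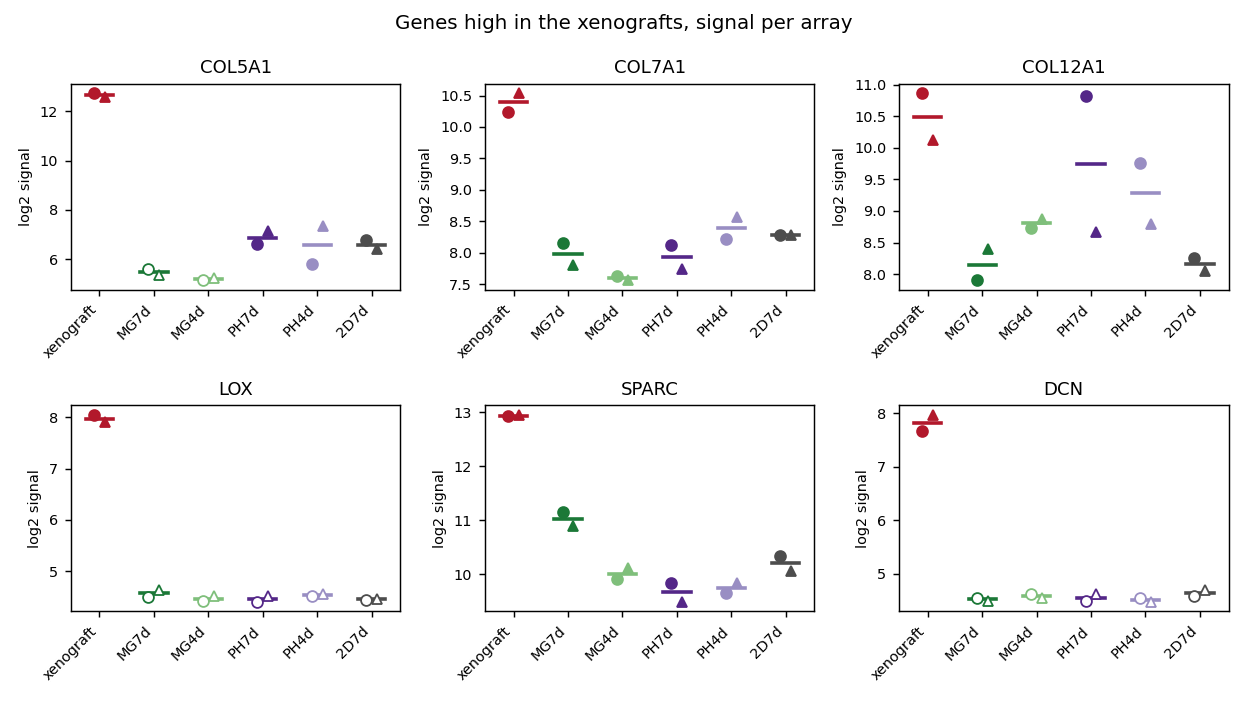
Log2 signal per array of 6 genes called higher in the xenografts than in 2D7d, by group, with circles for replicate 1, triangles for replicate 2 and bars for the group mean. Open symbols mark groups in which neither array detected the gene, and in COL12A1 alone a polyHEMA array (10.82) reaches the xenograft values.

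Of the type IV collagen genes, COL4A1 and COL4A2, whose chains form the common network of basement membranes, were called lower than 2D7d in 3 of the other 5 groups each, and COL4A5 and COL4A6, which form a network found in some epithelia, were higher in the xenografts. COL4A1 read 8.44 and 8.55 in the xenografts, 7.86 and 7.71 in MG7d, 7.89 and 8.10 in MG4d, 7.04 and 7.70 in PH7d, 6.99 and 7.84 in PH4d, and 9.11 and 8.60 in 2D7d. COL4A2 read 6.63 and 6.82 in the xenografts, 6.44 and 6.24 in MG7d, 6.25 and 6.17 in MG4d, 4.68 and 6.48 in PH7d, 5.74 and 6.57 in PH4d, and 8.0 and 7.97 in 2D7d. For both genes the 2D7d arrays were above all 10 others.

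COL4A1 fell against 2D7d in MG7d (-1.07 ± 0.34, adjusted p = 0.0498), PH7d (-1.49 ± 0.34, adjusted p = 0.0346) and PH4d (-1.44 ± 0.34, adjusted p = 0.0491). The MG7d call of COL4A1 was kept under only 6 of 12 alternative settings. Its differences of -0.86 ± 0.34 in MG4d and -0.36 ± 0.34 in the xenografts did not pass. COL4A2 fell in MG7d (-1.64 ± 0.50, adjusted p = 0.0464), MG4d (-1.77 ± 0.50, adjusted p = 0.0387) and PH7d (-2.40 ± 0.50, adjusted p = 0.0246). Its MG7d call was kept under 9 of 12 alternative settings. In the xenografts it differed by -1.26 ± 0.50 and in PH4d by -1.82 ± 0.50, with adjusted p of 0.0709 and 0.0821. The PH7d value of COL4A2 rests on arrays at 4.68 and 6.48, the first of which did not detect it.

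COL4A5 read 12.08 and 11.72 in the xenografts, 10.51 and 10.21 in MG7d, 9.48 and 9.82 in MG4d, 11.37 and 10.69 in PH7d, 11 and 10.76 in PH4d, and 10.67 and 10.04 in 2D7d. COL4A6 read 9.43 and 9.04 in the xenografts, 6.74 and 6.81 in MG7d, 7.31 and 7.17 in MG4d, 7.54 and 8.20 in PH7d, 7.67 and 8.02 in PH4d, and 8.25 and 7.80 in 2D7d. Both were above all 10 culture arrays in the xenografts, where COL4A5 rose by 1.54 ± 0.32 (adjusted p = 0.0155) and COL4A6 by 1.21 ± 0.29 (adjusted p = 0.0229) against 2D7d. COL4A6 was also higher than in MG7d, MG4d, PH7d and PH4d, by 2.46 ± 0.29, 2.00 ± 0.29, 1.37 ± 0.29 and 1.39 ± 0.29 (adjusted p at most 0.0265). With the values that the authors had processed, its calls against PH7d, PH4d and 2D7d were lost. With 1 of the compared arrays left out, the differences ranged over 1.04 to 1.69 for PH7d and 1.20 to 1.59 for PH4d. COL4A5 was higher than in MG7d (1.54 ± 0.32) and MG4d (2.25 ± 0.32) but did not pass against polyHEMA, and its call against MG7d was lost without any one of the 4 arrays compared. In MG7d, COL4A6 was lower than 2D7d (-1.25 ± 0.29, adjusted p = 0.0322), a call kept under 9 of 12 alternative settings, and COL4A5 stood at 0.01 ± 0.32. The contrast between genes was not tested. A second, dimmer probe of COL4A5 gave 0.72 in the xenografts and -0.83 in MG7d against 2D7d, so the probes disagree in MG7d.

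**Figure D3:**
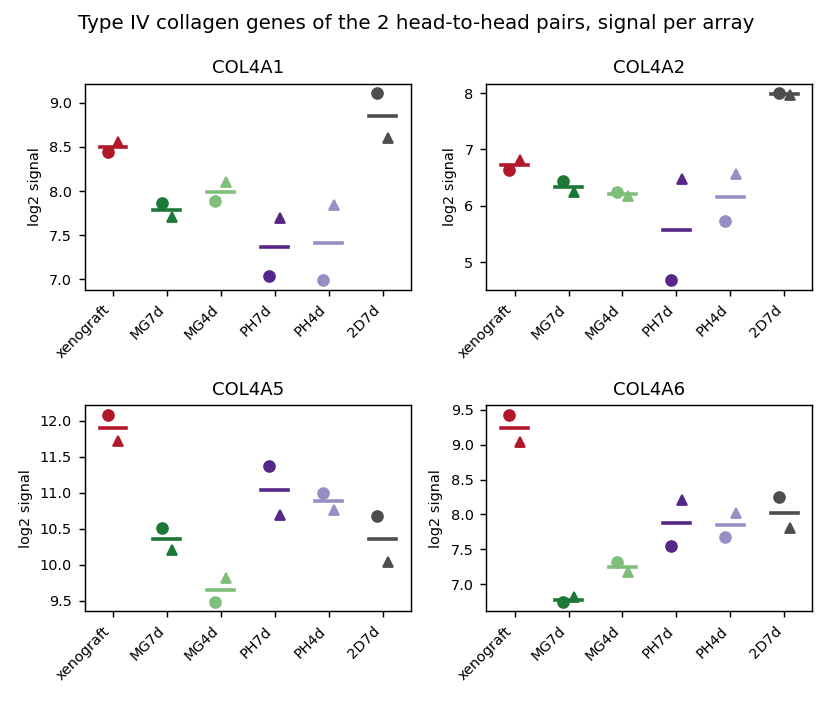
Log2 signal per array of the 4 type IV collagen genes, by group, with circles for replicate 1, triangles for replicate 2 and bars for the group mean. COL4A1 and COL4A2 are highest in 2D7d, whereas COL4A5 and COL4A6 are highest in the xenografts.

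Of the other basement membrane and network collagens, COL7A1 encodes type VII collagen, which anchors epithelia to the stroma below, and COL18A1 encodes type XVIII collagen, the source of endostatin. COL7A1 read 10.24 and 10.54 in the xenografts, 8.15 and 7.80 in MG7d, 7.63 and 7.56 in MG4d, 8.13 and 7.74 in PH7d, 8.22 and 8.56 in PH4d, and 8.28 and 8.28 in 2D7d. It was higher in the xenografts than in each culture, by 2.11 ± 0.25 against 2D7d (4.31-fold, adjusted p = 0.00141) and by 2.00 to 2.79 against the others. COL18A1 read 10.85 and 10.66 in the xenografts, 9.75 and 9.66 in MG7d, 8.39 and 8.54 in MG4d, 10.42 and 10.62 in PH7d, 9.99 and 10.86 in PH4d, and 10.59 and 10.69 in 2D7d. MG4d was the low group, with a difference of -2.18 ± 0.29 against 2D7d (adjusted p = 0.0101), and the xenografts exceeded it by 2.29 ± 0.29 (adjusted p = 0.00146). A second probe of COL18A1, detected on 3 arrays, fell outside 2D7d in the xenografts as well (-2.29 against 0.11 for the brighter probe), so the 2 probes disagree in sign there, and the call against MG4d was lost when probes were averaged.

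The beaded filament collagens COL6A1 and COL6A2, neighbours on chromosome 21, encode 2 chains of type VI collagen, which forms microfilaments next to basement membranes. COL6A1 read 11.59 and 11.29 in the xenografts, 11.12 and 11.12 in MG7d, 10.67 and 10.85 in MG4d, 9.53 and 10.84 in PH7d, 10.40 and 11.55 in PH4d, and 12.43 and 12.54 in 2D7d. COL6A2 read 10.55 and 10.63 in the xenografts, 9.69 and 10.44 in MG7d, 8.79 and 9.33 in MG4d, 8.91 and 9.37 in PH7d, 8.49 and 10.09 in PH4d, and 11.23 and 11.29 in 2D7d. Both were highest in 2D7d, with no overlap with any other group.

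In MG4d the differences from 2D7d were -1.72 ± 0.46 for COL6A1 (adjusted p = 0.033) and -2.20 ± 0.48 for COL6A2 (adjusted p = 0.0218). In PH7d they were -2.30 ± 0.46 (adjusted p = 0.02) and -2.12 ± 0.48 (adjusted p = 0.0338). The MG7d differences of -1.36 ± 0.46 and -1.19 ± 0.48 and the PH4d differences of -1.51 ± 0.46 and -1.97 ± 0.48 missed the threshold (adjusted p of 0.0543, 0.0807, 0.105 and 0.056). The xenograft differences were -1.04 ± 0.46 and -0.66 ± 0.48, which did not pass. COL6A3, the third chain of the common type VI heterotrimer, was detected on 0 arrays.

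FACIT collagens sit on the surface of fibrils. COL12A1 of type XII collagen read 10.87 and 10.12 in the xenografts, 7.90 and 8.39 in MG7d, 8.73 and 8.88 in MG4d, 10.82 and 8.66 in PH7d, 9.76 and 8.80 in PH4d, and 8.26 and 8.05 in 2D7d. It rose by 2.34 ± 0.62 in the xenografts against 2D7d (adjusted p = 0.0278), but replicate 1 of PH7d lay within the xenograft range while replicate 2 did not, and the differences of 1.58 ± 0.62 in PH7d and 1.13 ± 0.62 in PH4d did not pass. COL9A3, a chain of the cartilage collagen type IX, changed by -1.23 ± 0.36 in the xenografts (6.38 and 6.52, against 7.56 and 7.81 in 2D7d; adjusted p = 0.0345). COL9A2 of the same collagen fell at least 1.57-fold in MG4d (5.43 and 4.84, against 6.53 and 6.36 in 2D7d; adjusted p = 0.0466). Both type IX calls were lost under 5 of 12 alternative settings. COL16A1 was higher in the xenografts (6.75 and 6.87) than in MG7d (5.46 and 5.72) and MG4d (5.65 and 5.61), at least 2.16-fold and at least 2.02-fold. Its intensities were low (121 to 206), and both calls were kept under 9 of 12 alternative settings.

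COL13A1 had the largest fall among the calls against 2D7d. It encodes type XIII collagen, a transmembrane collagen found at sites where cells adhere to the matrix. COL13A1 read 4.89 and 4.63 in the xenografts, 8.93 and 9.11 in MG7d, 8.58 and 8.39 in MG4d, 4.77 and 4.90 in PH7d, 5.15 and 5.35 in PH4d, and 9.46 and 9.07 in 2D7d. It was detected on both arrays of 2D7d and of both Matrigel groups. In the xenografts, PH7d and PH4d it was detected on 0 arrays, with no overlap between these sets of arrays. It thus passed the detection filter only through groups where it was high, so that it had to be lower in the others. Against 2D7d it was at least 13.1-fold lower in the xenografts (adjusted p = 1.8e-05), at least 11.5-fold lower in PH7d (adjusted p = 6.32e-05) and at least 11.3-fold lower in PH4d (adjusted p = 1.51e-04). The Matrigel groups did not pass against 2D7d, with differences of -0.24 ± 0.23 in MG7d and -0.78 ± 0.23 in MG4d, and the xenografts lay at least 11.1-fold below MG7d and at least 7.67-fold below MG4d. In this gene the xenografts thus stood with the polyHEMA cultures and apart from Matrigel.

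**Figure D4:**
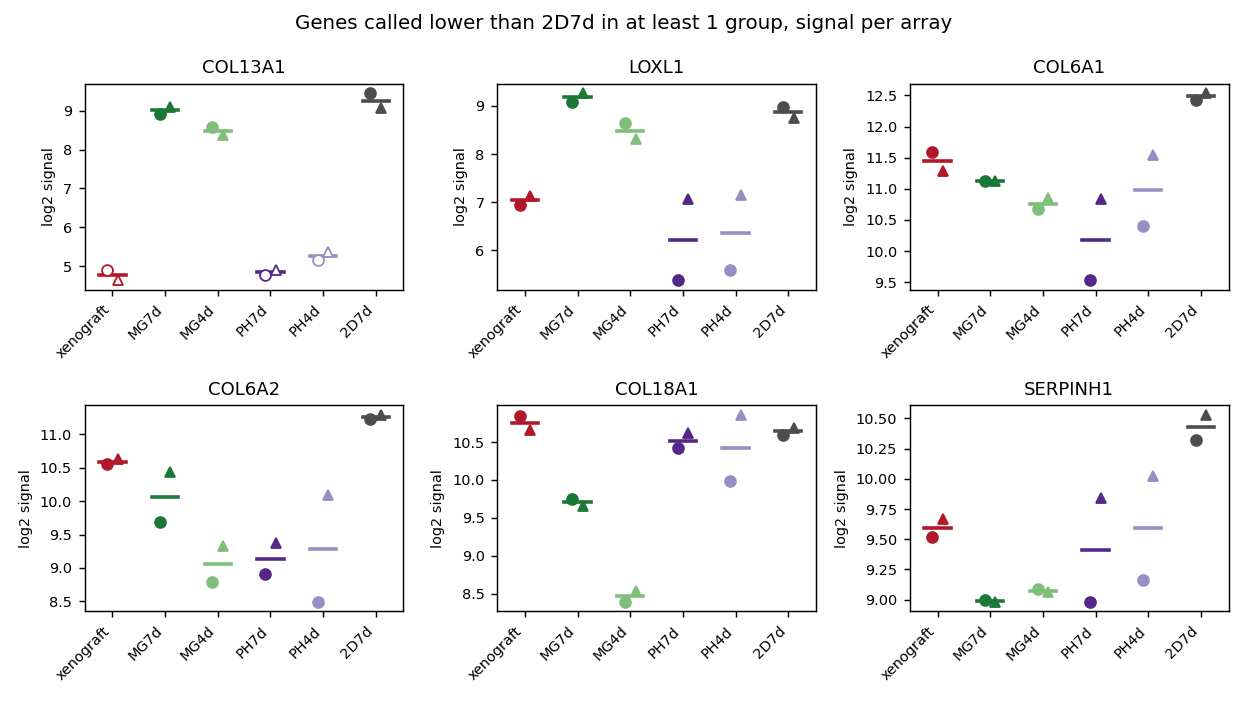
Log2 signal per array of 6 genes called lower than 2D7d in at least 1 group, with circles for replicate 1, triangles for replicate 2 and bars for the group mean; open symbols mark groups in which neither array detected the gene. COL13A1 and LOXL1 are low in the xenografts and polyHEMA, and replicate 1 of polyHEMA is below replicate 2 in LOXL1 and COL6A1.

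Of the lysyl oxidases, which crosslink collagen and elastin, LOX and LOXL1 passed the detection filter, LOX through the xenografts only, so that it had to be higher there. LOX read 8.05 and 7.90 in the xenografts, 4.50 and 4.64 in MG7d, 4.42 and 4.52 in MG4d, 4.40 and 4.51 in PH7d, 4.52 and 4.55 in PH4d, and 4.45 and 4.46 in 2D7d. It was detected in the xenografts only, at least 3.52-fold above 2D7d (adjusted p = 2.54e-05) and at least 4.53-fold above the other cultures. LOXL1 read 6.94 and 7.13 in the xenografts, 9.09 and 9.27 in MG7d, 8.64 and 8.31 in MG4d, 5.37 and 7.06 in PH7d, 5.58 and 7.14 in PH4d, and 8.97 and 8.76 in 2D7d. It was high in Matrigel and 2D7d and low in the other groups, with differences from 2D7d of -1.83 ± 0.58 in the xenografts (adjusted p = 0.0402), -2.65 ± 0.58 in PH7d (adjusted p = 0.0291) and -2.51 ± 0.58 in PH4d (adjusted p = 0.0454). Its Matrigel values differed from 2D7d by 0.31 ± 0.58 and -0.39 ± 0.58 in MG7d and MG4d. LOXL2, LOXL3 and LOXL4 were detected on 0 arrays.

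The enzymes and chaperone of the endoplasmic reticulum were detected on every array, and those called were lower than 2D7d. PLOD1 and PLOD3 hydroxylate lysines, P4HA2 and P4HB form prolyl 4-hydroxylase, and SERPINH1 encodes HSP47. SERPINH1 read 9.52 and 9.67 in the xenografts, 9.0 and 8.98 in MG7d, 9.09 and 9.06 in MG4d, 8.98 and 9.84 in PH7d, 9.16 and 10.02 in PH4d, and 10.32 and 10.53 in 2D7d. It changed by -1.44 ± 0.35 in MG7d (adjusted p = 0.0336) and -1.35 ± 0.35 in MG4d (adjusted p = 0.031), with no overlap with 2D7d in any group. PLOD1 read 11.20 and 11.56 in MG4d, against 12.59 and 12.58 in 2D7d, a difference of -1.21 ± 0.27 (adjusted p = 0.0236). PLOD3 read 10.36 and 10.33 in the xenografts, against 11.53 and 11.47 in 2D7d, a difference of -1.15 ± 0.32 (adjusted p = 0.0297). P4HB and P4HA2 passed in no comparison, with group means of 12.45 to 13.33 and 8.92 to 9.61. The 3 kept probes of P4HA2 differ in sign in every comparison with 2D7d, as in MG4d (-0.51, -0.45 and 1.08) and the xenografts (-0.20, -1.04 and 0.49).

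BMP1, the procollagen C-proteinase, read 9.13 and 8.94 in the xenografts, 8.50 and 8.30 in MG7d, 7.69 and 7.45 in MG4d, 8.51 and 9.50 in PH7d, 8.34 and 9.54 in PH4d, and 9.46 and 9.44 in 2D7d. It changed by -1.88 ± 0.42 in MG4d (adjusted p = 0.0227), while MG7d differed by -1.05 ± 0.42 without passing. PCOLCE, its enhancer, passed in no comparison, and its MG4d difference of -0.92 ± 0.27 missed the 2-fold limit (adjusted p = 0.0409).

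Of the matrix partners, SPARC, LUM and DCN passed the detection filter, and LUM and DCN did so through the xenografts, so that a difference there was built into their selection. SPARC, a collagen-binding glycoprotein, read 12.92 and 12.95 in the xenografts, 11.15 and 10.89 in MG7d, 9.90 and 10.12 in MG4d, 9.84 and 9.48 in PH7d, 9.64 and 9.83 in PH4d, and 10.34 and 10.06 in 2D7d, so that the xenografts were above all cultures and MG7d above the other cultures. The xenograft rise was 2.73 ± 0.24 against 2D7d (6.65-fold, adjusted p = 3.08e-04) and 1.91 ± 0.24 against MG7d (adjusted p = 0.00196). Decorin (DCN) and lumican (LUM), small proteoglycans that bind fibrils, are mostly made by fibroblasts. DCN read 7.66 and 7.97 in the xenografts and 4.47 to 4.69 in the 10 culture arrays, at least 3.15-fold higher than in 2D7d (adjusted p = 7e-05). LUM read 6.62 and 7.22 in the xenografts, 4.73 and 4.93 in MG7d, 4.59 and 4.77 in MG4d, 6.51 and 5.13 in PH7d, 5.17 and 4.97 in PH4d, and 4.71 and 4.81 in 2D7d, at least 1.69-fold higher in the xenografts than in 2D7d (adjusted p = 0.0112), and replicate 1 of PH7d came near the xenografts. Only 1 of the 4 DCN probes and 1 of the 2 LUM probes were detected on any array.

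**Figure D5:**
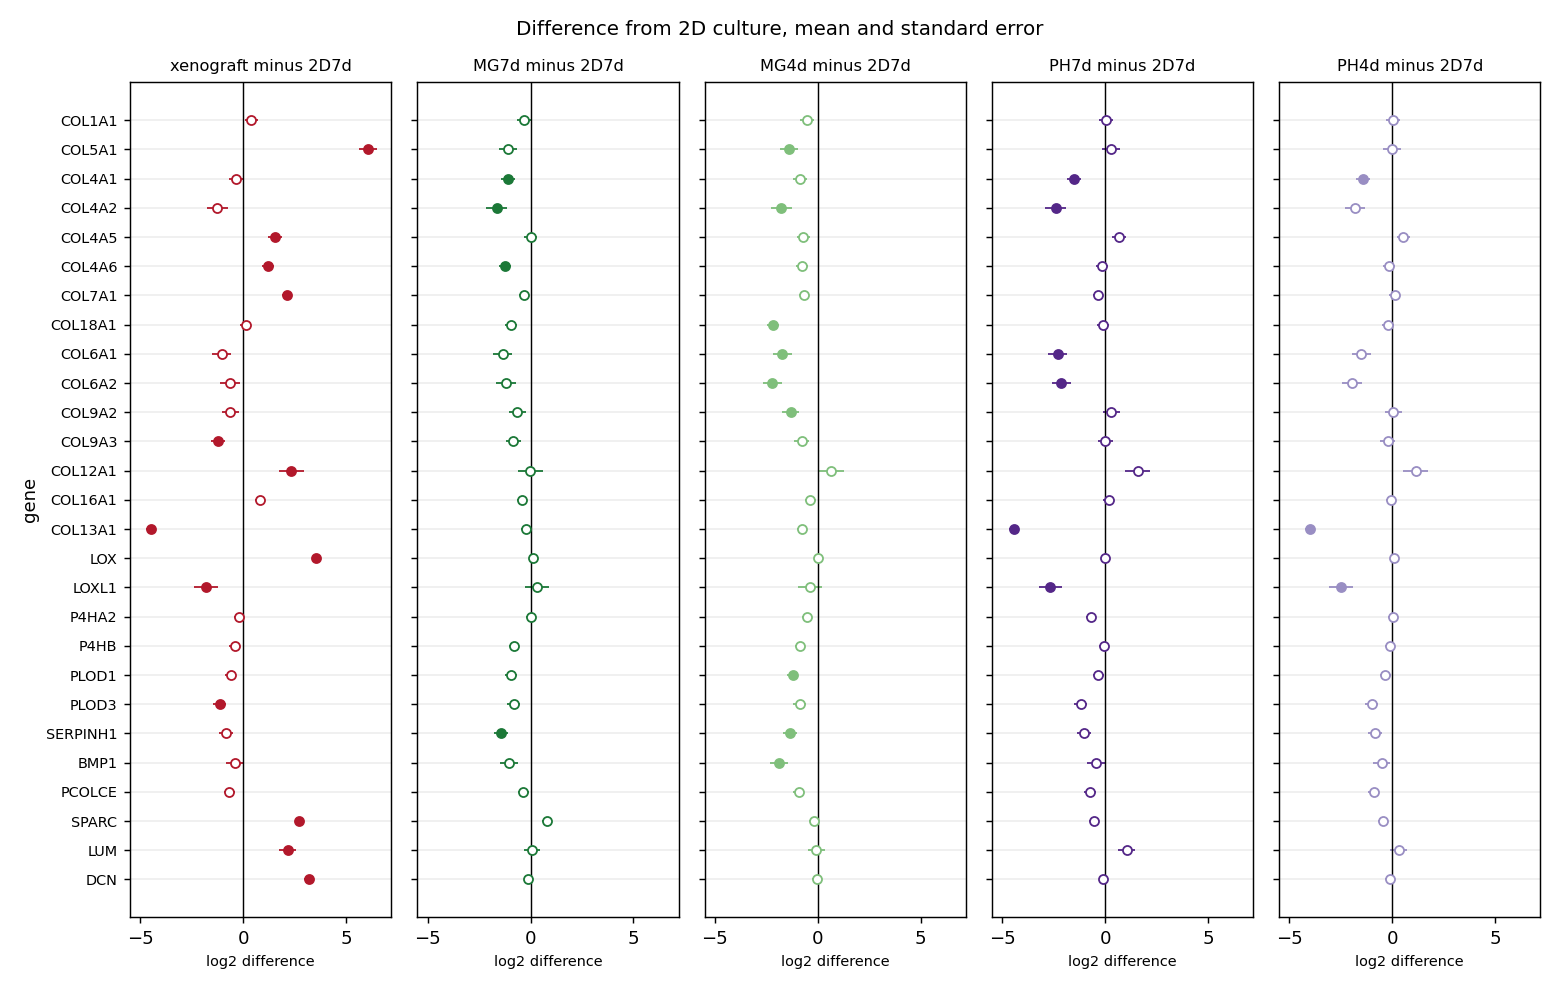
Log2 difference of each of the 27 members from 2D7d in the xenografts and the 4 cultures, with bars for the standard error and filled points for genes called changed. Filled points lie on both sides of 0 in the xenografts and below 0 in the 4 cultures.

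Each call was refitted without each of the 4 arrays compared. Most of these fits called fewer genes in all than the main fit, but some without a polyHEMA array called more. Against 2D7d in the xenografts, where such fits called 1.96% to 3.65% of all genes, COL5A1, COL7A1, COL13A1 and SPARC kept their calls each time (adjusted p at most 0.0276). LOX and DCN did too, but had to differ there. COL13A1 passed the detection filter only through 2D7d and both Matrigel groups. Undetected in the xenografts and on polyHEMA, it likewise had to be lower there. The other 7 xenograft calls were lost without at least 3 of those arrays. Without an array of their own group or of 2D7d, 0 members were called in MG4d and MG7d, but these fits called 0 of 10970 genes in MG4d and 0 to 5 in MG7d, so the loss says nothing about the members. COL13A1 kept its calls in PH7d and PH4d (adjusted p at most 0.00499). The other PH7d and PH4d calls were lost without replicate 1 of their group (2.59% and 3.45% of all genes called) or without either 2D7d array (0.52% to 2.17%), and stood without replicate 2 (25.9% and 37.5%). Under median scaling, COL4A1, COL4A2 and COL4A6 also lost their MG7d calls.

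Time in culture gave 0 changed members. In MG7d against MG4d, COL18A1 differed by 1.24 ± 0.29 (adjusted p = 0.0958) and SPARC by 1.01 ± 0.24 (adjusted p = 0.0965). The second kept probe of COL18A1 gave 0.00. In that comparison 4 of 27 had an unadjusted p under 0.05, as had 12.5% of all genes (0.893% of all genes called, 0.729% higher and 0.164% lower). In PH7d against PH4d, 1 had (P4HA2, -0.67 ± 0.24, adjusted p = 1), as had 1.14% of all genes, with 0% of all genes called. Same-numbered arrays of PH4d and PH7d deviated alike (correlation 0.874), which the fit behind this polyHEMA count ignores. A replicate block within polyHEMA, chosen after seeing the data, also called 0 members in PH7d against PH4d (0.1% of all genes called). With that block COL6A1 differed by -0.79 ± 0.16 and P4HA2 by -0.67 ± 0.18. The count without a block thus says little about time on polyHEMA. Without the polyHEMA arrays in the fit, 3 members were higher in MG7d than in MG4d, in a fit that called 5.62% of all genes.

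Among other genes of the pathway, further collagen biosynthesis and secretion genes were read from a list of 24, of which 15 passed the detection filter. Their median log2 difference from 2D7d was 0.25 in the xenografts, 0.53 in MG7d, 0.25 in MG4d, 0.38 in PH7d and 0.12 in PH4d. The medians over all genes were 0.01, -0.01, -0.07, 0.05 and 0.03. In the xenografts, 4 of the 15 were higher than 2D7d and 0 lower (16.4% of all genes higher and 14.7% lower). These were the lysyl hydroxylase PLOD2 (2.31 ± 0.75), the foldase FKBP14 (2.30 ± 0.78), the prolyl 4-hydroxylase subunit P4HA1 (1.99 ± 0.52) and KLHL12 (1.84 ± 0.50), an adaptor in procollagen export, with adjusted p of 0.0419, 0.0468, 0.0262 and 0.0291. PLOD2 read 13.41 and 13.34 in the xenografts, 12.98 and 12.88 in MG7d, 12.19 and 12.53 in MG4d, 12.49 and 10.76 in PH7d, 13.29 and 10.78 in PH4d, and 11.23 and 10.91 in 2D7d, so the polyHEMA replicates lay far apart while PLOD1 and PLOD3 were called higher in 0 comparisons. In MG7d 2 of the 15 were higher (MIA3 and KLHL12, both of procollagen export), where 10.8% of all genes were called higher. In MG4d 3 were lower (P3H1, FKBP10 and COLGALT1, which hydroxylate, fold and glycosylate collagen), where 11.5% of all genes were called lower. These small counts were not tested against the shares of all genes. PCOLCE2, a second enhancer of BMP1, was lower in PH7d by at least 4.94-fold and in PH4d with a difference of -1.91 ± 0.26 (adjusted p = 0.00143 and 0.00542).

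Of 20 further collagen chains, 1 passed the detection filter, COL8A2, which was lower in the xenografts (-1.35 ± 0.44, adjusted p = 0.0436). Of 9 collagen receptors, 4 passed, and DDR1, a receptor kinase for collagen, fell in MG4d (-1.80 ± 0.28, adjusted p = 0.0134). Of 14 other matrix partners, 8 passed, and 5 were higher and 0 lower in the xenografts than in 2D7d (16.4% of all genes higher). Of these 5, FN1 and FBN1 were detected in the xenografts only, so that they had to be higher there. THBS1, a thrombospondin that binds collagen, read 11.48 and 11.52 in the xenografts, 5.87 and 5.60 in MG7d, 7.16 and 7.17 in MG4d, 4.98 and 4.91 in PH7d, 5.14 and 5.0 in PH4d, and 8.02 and 7.59 in 2D7d, and TGFBI, a TGF-beta-induced collagen-binding protein, read 13.62 and 14.07 in the xenografts, 10.35 and 10.40 in MG7d, 10.08 and 10.38 in MG4d, 8.45 and 8.57 in PH7d, 9.09 and 8.88 in PH4d, and 11.43 and 11.07 in 2D7d. In the xenografts THBS1 rose by 3.70 ± 0.23 and TGFBI by 2.60 ± 0.25 (adjusted p = 4.81e-05 and 4.78e-04), while both fell in PH7d and PH4d (TGFBI with a difference of -2.74 ± 0.25 in PH7d, adjusted p = 0.0011). In Matrigel, THBS1 was also lower in MG7d (-2.06 ± 0.23, adjusted p = 0.01) and TGFBI in MG4d (-1.02 ± 0.25, adjusted p = 0.0268).

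Markers of other cells were read beside these results. Of 10 fibroblast markers, 3 passed the detection filter, FAP, MFAP5 and FBLN1, and FAP and MFAP5 were higher in the xenografts, MFAP5 by 3.33 ± 0.35 (9.89 and 9.61, against 6.58 and 6.26 in 2D7d). FAP was detected in the xenografts only, so that it had to be higher there. Of the markers that define them, PDGFRA, PDGFRB, THY1, POSTN, ASPN, DPT and TCF21 were detected on 0 arrays in every group. The summed linear signal of the 10 was 3730 to 4500 in the xenografts, 1310 to 1920 in Matrigel, 3520 to 3950 on polyHEMA and 2610 to 2630 in 2D7d, and includes FBLN1, which was detected on all 12 arrays. For 8 endothelial markers, 274 to 282 in the xenografts stood against 382 to 434 in 2D7d, and KDR and VWF were detected on 0 arrays. Of this list TEK was higher in the xenografts (1.13 ± 0.27, adjusted p = 0.0214), through which it passed the filter, and ESAM was lower (-2.27 ± 0.37, adjusted p = 0.00618). For 8 macrophage markers the sums were 1300 to 1350 in the xenografts and 904 to 906 in 2D7d, with AIF1 (which passed the filter through the xenografts) and CD68 higher and CD14 lower. HBA2, an alpha globin of red cells, read 8.17 and 8.21 in the xenografts, against 6.34 and 7.43 in 2D7d, which did not pass the test. Against MG4d, MG7d, PH4d and PH7d, however, HBA2 was called higher in the xenografts each time (adjusted p at most 0.0369). The other 3 erythroid markers, HBA1, HBB and ALAS2, were detected on 0 arrays. How far human probes bind RNA of the mouse host was not tested, and in such bulk RNA fewer cells of a type and less RNA per cell cannot be told apart. The cells kept their own markers, with ERBB2, EPCAM, KRT8, KRT18 and KRT19 detected on every array (ERBB2 lower in MG4d than in 2D7d, with a difference of -1.37 ± 0.23), but ESR1 was also detected on all 12 (6.12 to 7.86), against the label of an estrogen receptor-negative line.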

How the data were processed

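Expression was read on Illumina HumanHT-12 v4 arrays, 1 color, in 12 arrays of 6 groups. The authors deposited non-normalized probe intensity values and a detection p-value for each probe, and a second table of values that they had processed with lumi (whose version is not given in the sources used here) to log2. Of its 47323 rows, 38524 stood under another probe ID than in the intensity table, so it served only as an alternative, after its rows were matched by rank over the arrays; its exact scale at low signal remains unknown. Probe names came from GEO's platform annotation: 30113 probes have 1 symbol, 8 have several and 17202 are unnamed here. Genes, not coordinates, were taken from it.

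Intensities were background corrected (normexp on the negative controls inferred from the detection p-values, offset 16) and quantile normalized. A probe passed where some group detected it on both arrays (p under 0.01), which kept 18308 probes and, with the brightest probe standing for a gene, 10970 genes. limma 3.58.1 in R 4.3.3 was fitted over the 12 arrays with the 6 groups (6 residual and 3.17 prior degrees of freedom), and 11 comparisons were made with Benjamini-Hochberg adjustment over the 10970 genes within each. The fit was tested on simulated data. The members and lists were chosen with earlier results of these data known, and the genes named are the members and, of other lists, those called. Alternatives changed the scaling, background, offset, filter, probe rule, fold limit, arrays and replicate numbers, and used the processed table. No 2 arrays were near identical (highest Spearman correlation 0.919). With 2 arrays a group, their number limits the precision.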

Additional observations from a re-analysis of the deposited data

Results flagged for a closer look

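COL7A1, COL13A1 and P4HA2 were flagged because every MG7d array exceeded every MG4d array while every PH7d array lay below every PH4d array. The share of all genes that met this rule was not computed, so the flag does not set these members apart from other genes. The change over the 3 days differed between Matrigel and polyHEMA by 0.83 for COL7A1 (0.38 in Matrigel and -0.46 on polyHEMA), 0.95 for COL13A1 (0.53 and -0.41) and 1.21 for P4HA2 (0.54 and -0.67), on the log2 scale. The test of this difference itself, an interaction in limma, passed for none of them (adjusted p of 0.832, 0.715 and 0.508 over all genes). The other 2 probes of P4HA2 gave 0.32 and -0.08 in Matrigel and -0.40 and -0.48 on polyHEMA, so that 1 of them did not move in opposite directions. With a replicate block within polyHEMA, chosen after seeing the data, the adjusted p was 0.113 for COL7A1, 0.0563 for COL13A1 and 0.0221 for P4HA2. COL13A1 was not detected on polyHEMA, so its values there have no order.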

How the results depend on the processing

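Of 806 values of the 69 calls of members under alternatives other than leaving out 1 array, 749 kept the call, 57 lost it and 0 reversed. Of 828 values with 1 array left out, 599 kept it, 229 lost it and 0 reversed.

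The count of members changed ranged, with 1 array of the 12 left out, over 0 to 9 in MG4d, 0 to 8 in MG7d, 1 to 10 in PH4d, 1 to 10 in PH7d and 6 to 15 in the xenografts, each against 2D7d. In the xenografts it ranged over 9 to 13 against MG4d, 7 to 13 against MG7d, 5 to 9 against PH4d and 5 to 10 against PH7d, and it was 0 to 1 in MG7d against MG4d and 0 to 0 in PH7d against PH4d.

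In parentheses is the share of all genes called in the same fit. Against 2D7d, testing without the detection filter left 5 members in MG4d (6.71%), 2 in MG7d (4.7%) and 1 in PH4d (2.19%), and no background correction gave 5 in PH4d (3.35%). With no fold limit MG7d had 8, 1 of them higher (24.5%). A fit without polyHEMA gave 8 in MG7d against 2D7d (40.7%) and 3 in MG7d against MG4d (5.62%). Chosen after seeing the data, fits without both polyHEMA arrays numbered 1 gave 8 in MG7d (40.7%) and 5 in PH4d (9.21%) against 2D7d, 11 in the xenografts against PH4d (40.4%) and 12 against PH7d (39.8%), and 3 in MG7d against MG4d (5.62%). Without those numbered 2 the counts were 8 in MG7d (40.7%), 11 in PH4d, 1 of them higher (45.4%), and 11 in PH7d, 3 of them higher (42.3%), against 2D7d, 12 in the xenografts against PH4d (8.93%) and 11 against PH7d (13.1%), 3 in MG7d against MG4d (5.62%) and 1 in PH7d against PH4d (1.29%). The causes were not tested.

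The replicate block gave 5 members in PH4d against 2D7d (7.52%). Deviations of same-numbered arrays correlated by 0.874 between PH4d and PH7d but by -0.116 to 0.449 in the other pairs of groups, over 0.1 in 8 of 15 pairs in all, so the numbers were not taken to pair arrays. Chosen after seeing the data, a replicate block within polyHEMA gave 0 members in PH7d against PH4d (0.1%). With it the test of whether the change over days differs between Matrigel and polyHEMA had an adjusted p under 0.05 for 4 members and 5.23% of all genes, against 0 members and 0.0273% without it: 0.018 for COL6A1, 0.0221 for P4HA2, 0.0282 for COL18A1 and 0.0385 for SPARC.

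Median scaling moved the median of all genes from 2D7d to 0.17 in the xenografts (0.01 under quantile normalization), 0.18 in MG7d (-0.01), 0.21 in PH7d (0.05) and 0.16 in PH4d (0.03), and 72.6% of the genes called in MG7d were then higher. Members near background, such as COL1A2 and COL3A1, have no fold.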
